A study of Homo sapiens with 8 samples.

Results

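The regions described here are 767 wide peaks of histone H3 lysine 27 acetylation (H3K27ac) that were listed in control MDA-MB-231 cells and had no counterpart in ARID1A knockout cells. They were chosen by measured values: a peak of the control list on chromosomes 1 to 22 or X was taken if it was at least 1500 bp long and if no peak of the knockout list lay within 1 kb of either edge. Of 39797 control peaks on these chromosomes 20021 were that wide, and the 767 made up 3.83% of the wide ones. Of the other 19254 wide control peaks, 19227 overlapped a knockout peak and 27 had one within 1 kb. Because the absence of a knockout peak chose them, that absence is not a result, and what follows describes where these peaks lay, how strong they were and which genes they touched.

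MDA-MB-231 is an established mesenchymal triple-negative breast cancer cell line, and the series profiled it by chromatin immunoprecipitation and sequencing in a control genotype and in an ARID1A knockout genotype. Per the labels there were 8 libraries in 4 groups of 2: input and anti-H3K27ac immunoprecipitate of control cells, and input and anti-H3K27ac immunoprecipitate of ARID1A knockout cells. All were made from chromatin cut with micrococcal nuclease, and no drug or time point was named. The clonality of the knockout and the origin of the replicates, as separate cultures or not, are not stated in the sources used here. The sample characteristics named an H3K27ac antibody, whereas the extraction protocol named one to H3K4me3, so the name of the mark rests on the titles and characteristics.

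Acetylation of lysine 27 on histone H3 is placed by the acetyltransferases p300 and CBP on nucleosomes at active promoters and enhancers. ARID1A binds DNA as part of canonical BAF, a form of the SWI/SNF remodelling complex that slides and evicts nucleosomes and that is known to occupy many enhancers. Broad acetylated stretches are usually found at highly active promoters and at groups of enhancers, whereas acetylation inside a gene often marks an intronic enhancer or an alternative start site.

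Only 1 list of peaks existed per genotype, so the values that follow carry no replicate error and the genotypes could not be tested against each other. The knockout list was the stronger one in the authors' pileup (the mean fragment coverage of a peak), with a median of 31.99 over 42552 peaks against 22.74 over the control peaks. The depth of the libraries was not given in the sources used here, and the part of depth or of the calling threshold in any region being control-only was not tested. Of 8 genes that mark mesenchymal triple-negative cells, 7 had a peak at a gene end in both lists, TWIST1 being the exception. Of 6 luminal genes 3 had one in control cells and 4 in knockout cells, and of 3 blood cell genes 1 (SPI1) had one in both. Of 2 genes of other tissues SNAP25 had one in both lists and ALB had none.

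A small number of the 767 peaks covered a gene start. A RefSeq start site of a protein-coding gene lay inside 27 of them, for 28 genes. The upstream sequences of 6 of these genes are shown as examples of places where a control-only peak sat on a tabled start site. For BATF2, PALM2AKAP2, TNS1 and GABBR1 that site lay inside the gene. The 6 are not the highest by pileup: the peaks over ENKD1 with C16orf86 (34.9) and over ST6GALNAC3 (28.4) were above that of GDF15 (24.5) and are not shown. Each is the 250 bases before the start site from RefSeq on GRCh38.p14 (the assembly of hg38), written 5′ to 3′ on the strand of the gene. Capitals mark matches on either strand to the letters GGGCGG (GC box), GGAATG (TEAD), CCAAT (the NF-Y box), TGANTCA (AP-1) or CCGGAA (ETS).
BATF2, a basic leucine zipper factor of the AP-1 family, an internal start, chr11:64990278-64990527, minus strand: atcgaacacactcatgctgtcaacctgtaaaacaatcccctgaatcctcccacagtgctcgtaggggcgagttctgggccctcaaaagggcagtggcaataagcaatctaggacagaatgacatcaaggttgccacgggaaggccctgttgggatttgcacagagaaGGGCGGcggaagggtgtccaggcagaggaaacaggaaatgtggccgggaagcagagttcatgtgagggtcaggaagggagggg
PALM2AKAP2, whose product includes a protein kinase A anchor, an internal start, chr9:109779948-109780197, plus strand: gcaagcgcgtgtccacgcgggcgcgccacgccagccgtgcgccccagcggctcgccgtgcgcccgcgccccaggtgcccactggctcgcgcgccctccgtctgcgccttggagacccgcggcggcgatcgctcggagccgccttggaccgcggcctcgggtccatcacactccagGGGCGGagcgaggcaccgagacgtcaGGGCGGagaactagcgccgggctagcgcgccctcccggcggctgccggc
TNS1, a focal adhesion protein that binds actin, an internal start, chr2:217920237-217920486, minus strand: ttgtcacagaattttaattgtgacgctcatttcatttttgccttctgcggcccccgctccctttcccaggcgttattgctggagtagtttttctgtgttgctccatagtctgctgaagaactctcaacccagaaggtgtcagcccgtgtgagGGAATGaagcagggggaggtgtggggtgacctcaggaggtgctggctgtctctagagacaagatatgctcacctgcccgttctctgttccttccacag
TNS1, a further internal start, chr2:217937546-217937795, minus strand: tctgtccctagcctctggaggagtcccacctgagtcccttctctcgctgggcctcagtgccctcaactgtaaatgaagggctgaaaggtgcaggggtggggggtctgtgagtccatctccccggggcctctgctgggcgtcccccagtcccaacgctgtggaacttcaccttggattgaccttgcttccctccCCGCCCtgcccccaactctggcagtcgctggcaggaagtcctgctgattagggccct
GDF15, a stress-induced secreted member of the TGF-beta superfamily, chr19:18385908-18386157, plus strand: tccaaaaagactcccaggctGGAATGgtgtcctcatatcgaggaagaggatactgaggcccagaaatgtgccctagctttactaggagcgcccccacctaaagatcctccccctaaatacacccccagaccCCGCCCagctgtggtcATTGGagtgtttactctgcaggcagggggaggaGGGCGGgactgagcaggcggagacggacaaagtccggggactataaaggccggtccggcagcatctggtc
GABBR1, a subunit of the metabotropic GABA receptor, an internal start, chr6:29628014-29628263, minus strand: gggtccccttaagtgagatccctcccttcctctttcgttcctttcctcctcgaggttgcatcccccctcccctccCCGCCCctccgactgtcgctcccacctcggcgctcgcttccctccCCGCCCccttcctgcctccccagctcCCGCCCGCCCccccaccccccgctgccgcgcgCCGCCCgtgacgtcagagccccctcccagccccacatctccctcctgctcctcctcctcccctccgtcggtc
ZSWIM5, a zinc finger protein, chr1:45206606-45206855, minus strand: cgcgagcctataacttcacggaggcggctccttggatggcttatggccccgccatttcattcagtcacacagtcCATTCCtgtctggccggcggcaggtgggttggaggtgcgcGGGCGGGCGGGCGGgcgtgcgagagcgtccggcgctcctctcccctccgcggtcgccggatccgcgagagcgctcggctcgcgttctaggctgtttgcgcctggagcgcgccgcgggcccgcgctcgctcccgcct

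These promoters differed in composition and in the letters they held. The GABBR1 and ZSWIM5 sequences held runs of GC boxes, PALM2AKAP2 held a pair of them, and BATF2 and the second TNS1 start each held 1. The first TNS1 start had a TEAD match and no GC box, and GDF15 had a TEAD match, GC boxes on both strands and a match to CCAAT. In all, 29 of the peaks overlapped 31 RefSeq promoter windows (300 bases each, 50 of them after the start site) of 30 coding genes, and the table held 22132 such windows. Their median GC content was 65.3%, against 62.3% over all windows. GGGCGG was found in 20 of the 31 (64.5%) against 56.3% of all windows, GGAATG in 7 (22.6%) against 12.2%, and TGANTCA in 2 (6.45%) against 6.15%. CCAAT was found in 6 (19.4%) against 34.6%, and CCGGAA in 2 (6.45%) against 21.2%. Of the other letters searched, TGACGT (the cAMP response element core) was found in 6 (19.4%) against 8.92%, TGTGGT (RUNX) in 5 (16.1%) against 11.3%, CATGT in 6 (19.4%) against 22.6%, TATAAA in 3 (9.68%) against 9.46%, CACGTG (E-box) in 2 (6.45%) against 8.34% and GCATGCG (NRF1 core) in none against 4.63%. Matches on both strands were counted, some patterns can overlap, and with 31 windows these shares are descriptions only.

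The peaks were mostly low and only moderately wide. Together they covered 1.71 Mb. Their widths ran from 1500 to 7766 bp with a median of 1942 bp, and 418 were under 2000 bp, 102 were at least 3000 bp and 17 were at least 5000 bp. Their pileup ran from 6 to 76.8 with a median of 13.6, against a median of 41.4 for the 19254 wide control peaks that had a knockout peak within 1 kb. Their median fold enrichment over input (the authors' value) was 3.31 against 8.86. Only 13 of the 767 exceeded the median pileup of those other wide peaks, and 299 reached a −log10 q of 5. When all wide control peaks were ordered by pileup and cut into 10 equal groups, the lowest group (pileup 6 to 16.7) held 516 of the 767, so that 25.8% of its 2002 peaks were control-only (95% exact binomial interval 23.9 to 27.7%). The share was 6.84% in the next group and 2.90% in the one after. It was 0 of 2003 in the highest group, which allows up to 0.184%. Intervals here cover counting error only.

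**Figure D1:**
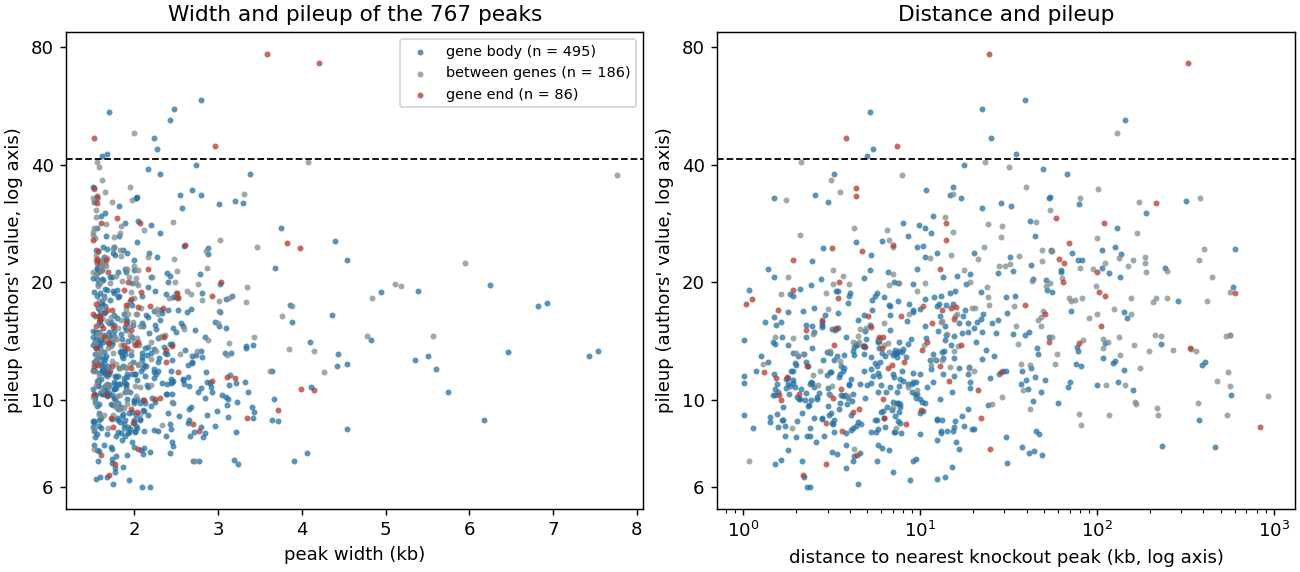
Pileup of each of the 767 wide control-only peaks (vertical, log axis) against peak width in kb (left) and against distance to the nearest knockout peak in kb (right, log axis), with points coloured by position relative to protein-coding genes. The dashed line is the median pileup of 41.4 of the wide control peaks that had a knockout peak within 1 kb, and 13 points lie above it.

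The limits that chose the set cut through a continuum. Just inside the width limit were peaks in ATP5F1A (1500 bp, pileup 10.7), in GRIK5 (1503 bp, 35.0) and nearest to DEPDC1 (1502 bp, 32.9). Peaks of 1499 bp nearest to SLC7A6, SYNRG and LGALS7B with pileups of 16.8, 22.3 and 21.8 fell just outside. Just inside the distance limit were peaks of DNAJB6, BNIP3 and CSTF3 with a knockout peak at 1005, 1008 and 1013 bp. Peaks nearest to ACTN1, YTHDF1 and IFFO2 with a knockout peak at 985, 973 and 970 bp fell outside.

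By pileup, the strongest peak lay at an end of MAJIN, a meiotic telomere protein (chr11:64968300-64971885, 3586 bp, pileup 76.8), 24.5 kb from the nearest knockout peak. The next lay at an end of DSCAML1, a neuronal adhesion molecule (chr11:117815625-117819823, pileup 72.7), whose window also took in FXYD2, a regulator of the sodium pump, and which was 326 kb from any knockout peak. ZNF503, a zinc finger repressor of transcription, held a peak of pileup 58.7 in its body (chr10:75357710-75360509), and FAM222A one of 55.7 (chr12:109737886-109740359). The peak over the BATF2 start (chr11:64989496-64991186) had a pileup of 54.7. SHANK2, a postsynaptic scaffold, held one of 52.1, and a peak of 48.3 lay between genes, 323 kb from PIK3C3, a lipid kinase of autophagy. BEST1 (a chloride channel, at a gene end), RMND5A (a subunit of the CTLH ubiquitin ligase, in the gene body) and TRIM14 (an adaptor of antiviral signalling, at a gene end) completed the 10 strongest, with 46.9, 46.8 and 44.7. MAJIN and BATF2 lay close together and formed, with a peak at the splicing factor gene SF1, a run of 3. Of these 10, 6 were in gene bodies or between genes and 4 at gene ends.

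The widest peaks were different ones. A peak of 7766 bp lay between genes, 12.2 kb from C13orf46 (chr13:113906567-113914332), and was also strong, with a pileup of 37.7. Of the next 9, all but 1 lay in gene bodies. UHRF1, which recruits the maintenance DNA methyltransferase, held 7535 bp (chr19:4921283-4928817), HAPSTR1, a stress-response regulator, 7432 bp, and RELT, a member of the TNF receptor superfamily, 6931 bp. SMURF2, a ubiquitin ligase of TGF-beta signalling, held 6824 bp, SIPA1L3, a Rap GTPase regulator, 6457 bp, ADAMTS12, a secreted metalloprotease, 6249 bp, HNRNPC, an RNA-binding protein, 6179 bp, and SZRD1 5739 bp. A peak of 5943 bp lay 810 kb from DHX35. Their pileups were from 8.88 (HNRNPC) to 22.4 (near DHX35) apart from the first, so the widest peaks were not the highest.

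Relative to genes, most of the 767 lay inside gene bodies. A gene end here is the stretch within 1 kb of either end of a RefSeq protein-coding gene. Of the 767, 86 (11.2%, interval 9.07 to 13.7%) overlapped a gene end, 495 (64.5%, 61.0 to 67.9%) lay in a gene body away from its ends, and 186 (24.3%, 21.3 to 27.4%) lay between genes. Wide control peaks with a knockout peak within 1 kb were at gene ends in 44.9% and in gene bodies in 31.9%. That contrast went with pileup: among 1901 of those other peaks whose pileup fell in the interquartile range of the 767 (10.48 to 18.7), 10.4% (9.08 to 11.9%) were at gene ends, 59.1% (56.8 to 61.3%) in gene bodies and 30.5% (28.4 to 32.6%) between genes. The 383 control-only peaks in the same pileup range had 11.2% (8.25 to 14.8%), 64.8% (59.7 to 69.5%) and 24.0% (19.8 to 28.6%). The intervals of the matched sets overlapped for each class, between genes only narrowly, and overlap does not show that shares were equal.

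**Figure D2:**
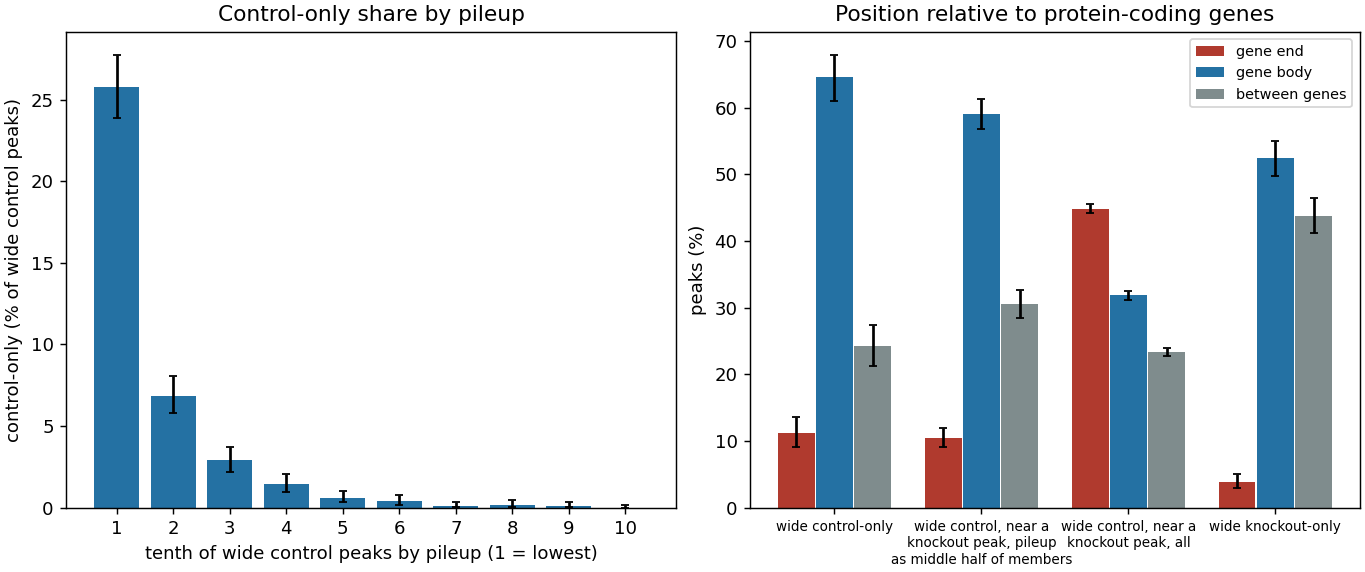
Left, share of wide control peaks that were control-only in each of 10 equal groups by pileup, from 25.8% in the lowest to 0 in the highest; right, share of peaks at gene ends, in gene bodies and between genes in 4 sets. Bars are percentages and whiskers 95% exact binomial intervals (counting error only). Of the wide control-only peaks 64.5% lay in gene bodies.

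The same rule with the lists exchanged gave 1407 wide knockout-only peaks, 6.49% of 21676 wide knockout peaks. Fewer of these were at gene ends (3.84%, 2.90 to 4.98%) or in gene bodies (52.4%, 49.7 to 55.0%) than of the control-only ones, and more were between genes (43.8%, 41.2 to 46.4%). These intervals did not overlap those of the control-only set in any class, but they cover counting error only and there was 1 list per genotype. With a −log10 q of at least 5 required of control peaks alone, 299 of the control-only peaks remained. With the limit on both lists, weaker peaks of the other list no longer counted. The sets so formed therefore include peaks with a weaker listed peak of the other genotype within 1 kb. In them, gene bodies held 51.4% (49.5 to 53.2%) of 2728 peaks on the knockout side. On the control side they held 54.2% (50.7 to 57.5%) of 853, and these intervals overlapped. In the same order, gene ends held 5.43% (4.61 to 6.34%) and 11.8% (9.75 to 14.2%). The shares between genes were 43.2% (41.3 to 45.1%) and 34.0% (30.8 to 37.3%). At gene ends and between genes the intervals stayed apart. The median pileup of the knockout-only peaks was 24.6.

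Weak and strong control-only peaks sat in different surroundings. The set was split by pileup into 3 groups of equal size. In the lowest group (6 to 11.4, 255 peaks), 80% (74.6 to 84.7%) lay in gene bodies and 11.4% between genes, and 68.6% (62.5 to 74.3%) had a knockout peak within 10 kb. In the highest group (16.6 to 76.8, 256 peaks), 49.6% (43.3 to 55.9%) lay in gene bodies and 36.7% (30.8 to 42.9%) between genes, and 34.4% (28.6 to 40.5%) had a knockout peak within 10 kb. A coding start site lay inside 1 peak of the lowest group, 6 of the middle and 20 of the highest. The median distance to the nearest knockout peak was 5.78 kb in the lowest group, 7.91 kb in the middle and 19.2 kb in the highest, while median widths were alike at 1970, 1913 and 1944 bp.

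**Figure D3:**
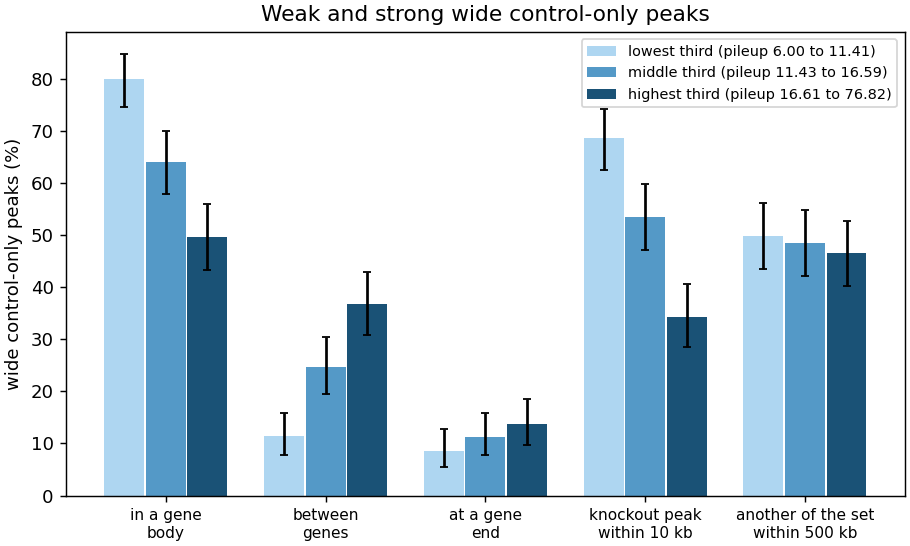
Share of the 767 wide control-only peaks with each feature (percent, vertical), split into 3 equal groups by pileup; whiskers are 95% exact binomial intervals covering counting error only. The share in gene bodies was 80% in the lowest group and 49.6% in the highest, and the share with a knockout peak within 10 kb 68.6% and 34.4%.

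Over all 767 the nearest knockout peak was at a median of 9.14 kb (lowest 1.005 kb, highest 932 kb). It was 1 to 5 kb away for 257 peaks (33.5%) and over 100 kb away for 95 (12.4%). A knockout peak lay within 10 kb of 400 of the 767, and for 370 of these 400 (92.5%) that nearest knockout peak itself overlapped a control peak. Over all 767, at any distance, the nearest knockout peak did so for 695 (90.6%). For 107 there were knockout peaks within 10 kb on both sides. The 370 peaks stood beside acetylated stretches listed in both genotypes. The shares of 92.5% and 90.6% were close, and the share over all knockout peaks is not given here. They are therefore not read as a trait of these peaks. At the other extreme, 273 (35.6%) had no other peak of either list within 10 kb.

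The 767 peaks had 714 different nearest protein-coding genes, which is 3.57% of the 19974 genes of the reference, and touched 546 (2.73%). Most of the touched genes were acetylated at an end in both genotypes: 445 of 546 (81.5%, 78.0 to 84.7%) had a peak at an end in each list, against 61.1% of all genes. The touched genes were also longer, with a median of 62.6 kb against 24.2 kb. Within genes of at least 50 kb the share was 79.9% of 318 against 65.8% of all such genes, and within shorter ones 83.8% of 228 against 59.0%. Another 88 (16.1%) had an end peak in neither list, 11 in the control list alone and 2 in the knockout list alone. The 767 peaks themselves were not counted as end peaks here. The 88 therefore include genes such as MAJIN, DSCAML1 and GDF15, which held a control-only peak at an end. Inside a host gene the peaks were spread along its length: 5 successive stretches of equal length from the start held 21.3, 22.8, 19.4, 16.2 and 20.4% of 470 peaks in genes with a known start, at a median of 25.01 kb from it. A non-coding transcript was touched as well in part of the set, a lncRNA gene by 98 peaks and a miRNA gene by 3 (MIR3189 in GDF15, MIR4531 in PVR and MIR6780B in ABCC10).

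At gene ends, the strongest of the 86 peaks were, after MAJIN, DSCAML1, BEST1 and TRIM14, those over the shared start of ENKD1 and C16orf86 (pileup 34.9), at MYL5 (a myosin light chain, 33.2), GPRC5C (an orphan receptor, 31.9), ZSWIM5 (29.2), ARNT2 (a partner of hypoxia and dioxin receptor factors, 28.4) and ST6GALNAC3 (a sialyltransferase, 28.4). Then came RUNDC3A (25.6), PPP1R14C (an inhibitor of protein phosphatase 1, 25.2), a place where CLTC (clathrin heavy chain) and PTRH2 adjoin (24.9), and GDF15 (24.5). The GDF15 peak was 3973 bp long (chr19:18385357-18389329) and covered the whole start region shown above, with the nearest knockout peak 3.19 kb away. The ZSWIM5, ST6GALNAC3 and PPP1R14C starts were farther from any knockout peak, at 58.8, 109 and 69.9 kb. POU3F2, a neural POU-domain factor, had a peak of pileup 18.4 over its start with the nearest knockout peak 111 kb away.

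Of the 28 genes with a start site inside a control-only peak, 21 had all of their tabled start sites inside such peaks, and 7 had another start site elsewhere. The table is not complete: of these 21 genes 16 had the start within 1 kb of the gene's own 5′ end, and 5 had it farther inside. For 4 of the 5, BATF2 (6.69 kb inside), GABBR1 (5.17 kb), KIF7 (7.58 kb) and ZNF575 (2.35 kb), other peaks of both lists lay at the gene's 5′ end, and for IP6K3 (15.2 kb) none did. For 5 of these 7 another start was within 1 kb of peaks of both lists, namely BSCL2, FAM118A, KIAA1217, TNS1 and ZNF331. In ZNF331, a zinc finger gene with 6 tabled starts, 1 start lay in a control-only peak, all 5 others had a control peak within 1 kb and 1 of them a knockout peak too. In PALM2AKAP2 the internal start carried a peak of pileup 42.7 (chr9:109779706-109781374), 34.8 kb from the nearest knockout peak. Of its 2 other starts 1 had a control peak within 1 kb and none a knockout peak.

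Many of the peaks lay near another of the set. Another wide control-only peak lay within 500 kb of 370 of the 767 (48.2%), against 58.4% in the larger knockout-only set. Such a share depends on how many peaks a set holds and on where wide peaks lie at all. No share for wide control peaks in general is given here, so the counts of neighbours and runs are descriptions of position only. At a −log10 q of at least 5 in both lists the shares were 44.1% of 853 and 76.1% of 2728. As said above, those sets include peaks with a weaker listed peak of the other genotype nearby. Joining peaks less than 500 kb apart left 397 alone, 98 pairs, and 49 runs of 3 or more that held 174 peaks. Of these 49 runs 5 had no knockout peak anywhere in their span. A total of 39 genes were touched by at least 2 of the peaks (93 peaks in all). Of these 39 genes 33 had a peak of both lists at an end that was not itself one of the 767. Of all 546 touched genes 445 (81.5%) had such end peaks, a similar share.

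TNS1 and DLC1 held more of the peaks than any other gene. In TNS1 the 5 control-only peaks lay over 78.6 kb (chr2:217918507-217997140) with pileups of 37.9, 13.7, 22.9, 24.7 and 16.8 and widths of 3383, 2353, 4537, 1752 and 3024 bp. No knockout peak fell in that span, and the nearest was 67.5 kb away. The span held 6 control peaks in all, so 1 narrower control peak was there too. Peaks 1 and 3 in this order covered the internal start sites whose sequences are shown above. SDK1, an adhesion molecule of the immunoglobulin superfamily, had 3 control-only peaks of pileup 15.5, 21.8 and 24.3, at 105, 241 and 605 kb from the nearest knockout peak, the first of them at its end.

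In NOCT, a circadian deadenylase-like phosphatase, 4 low peaks (pileup 10.1, 8.87, 8.92 and 8.32) followed each other over 14.9 kb (chr4:139024111-139038988). No knockout peak lay among them, but a broad stretch at the start of the gene was listed in both genotypes. The first control-only peak was 2.61 kb from the knockout peak there and nearer to the control peak. DLC1, known as a tumour suppressor, held 5 peaks over 122.5 kb (chr8:13103410-13225911) with pileups of 8.56 to 12.03, and 4 knockout peaks lay between them. BCAR3, an adaptor of p130Cas signalling, held 4 of pileup 11.1 to 13.4 over 135 kb, with 12 knockout peaks in the span. DNAJB6 (a chaperone), NEDD4L (a ubiquitin ligase) and TRIO (a guanine nucleotide exchange factor) held 3 each. The NEDD4L peaks were the lowest of these, at pileups of 6.25, 6 and 6.01, close to the lowest value of the whole control set.

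**Figure D4:**
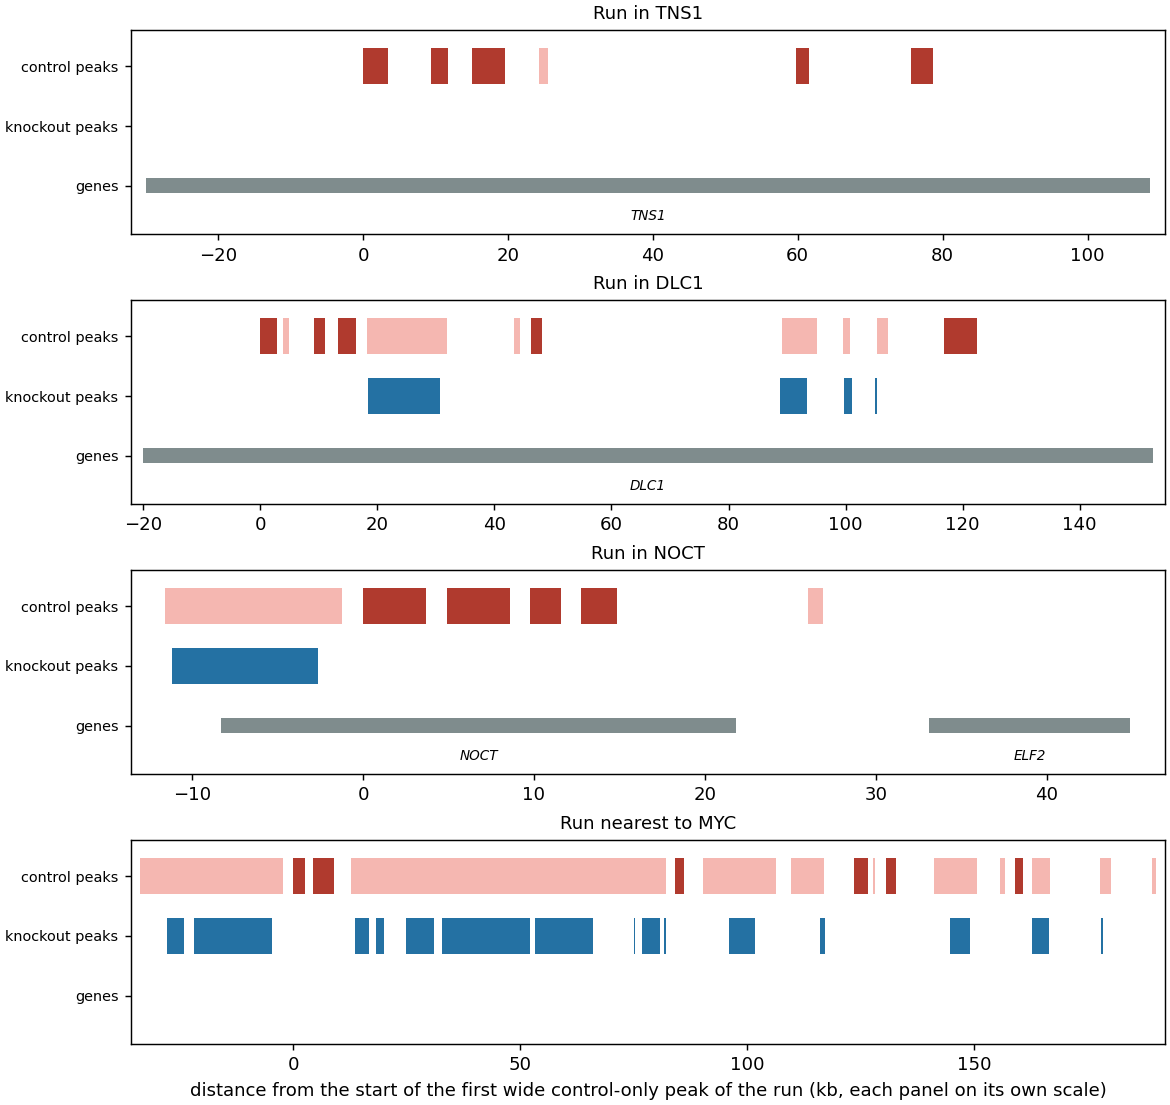
Control peaks (red, wide control-only; pink, other control), knockout peaks (blue) and protein-coding genes (grey) around 4 runs of wide control-only peaks, against distance in kb from the start of the first of them; each panel has its own scale. No knockout peak lies among the red peaks of TNS1 or NOCT, while 4 lie in the DLC1 run and 11 in the run nearest to MYC.

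Outside protein-coding genes, the run with most peaks was nearest to MYC, the proto-oncogene transcription factor. It held 6 peaks over 161 kb (chr8:127870495-128031264), from 128 to 287 kb beyond the gene, with pileups of 12.7 to 15.7. These 6 filled gaps among other control peaks, of which the broad ones overlapped knockout peaks. Narrow control peaks at 127.8 to 128.2 kb and 155.8 to 156.8 kb from the start of the run overlapped none. In all, 12 control peaks, these 6 among them, and 11 knockout peaks lay in the span. Another compact run was nearest to KCNJ18, a potassium channel gene, but 384 to 414 kb from it (chr17:22088420-22121181). Its 5 peaks over 32.8 kb had pileups of 14.6, 9.15, 11.8, 10.9 and 14.7, and the nearest knockout peak was 537 kb away. How uniquely reads map in that stretch, which lies toward the centromere, was not tested. The 2 other runs of 6 were spread over gene-rich stretches, 511 kb from ABCC10 to VEGFA with 22 knockout peaks and 830 kb from FAM222A to PPTC7 with 30.

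The 12 runs of 4 comprised those in NOCT and BCAR3 and 10 that took in several genes. They included MAP4 with CDC25A, PTPN1 with ADNP, LASP1 with CACNB1, ZBTB7A with CHAF1A, ARHGAP35 with SAE1, TRAF4 with MYO18A, ZSWIM5 with MAST2, STMN3 with DNAJC5, and DSCAML1 with PHLDB1. The 30 genes touched by exactly 2 peaks were ACTN4, ANKRD11, ANXA11, ARHGEF17, ARIH2, ATP2A2, CAMTA1, CDC25A, CLIC4, CRIM1, EIF3A, EYA1, EZR, KIFC3, LASP1, MACF1, MAP4, NMT1, NSD2, PITPNB, PPARG, SKI, SLC43A3, SMC4, SMURF2, SNAPC1, SZRD1, VASP, YWHAE and YWHAG.

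Per chromosome, the control-only share of wide control peaks ran from 2.76% on chromosome 21 (6 of 217, interval 1.02 to 5.92%) to 5.24% on chromosome X (30 of 572, 3.57 to 7.40%). By count chromosome 1 had the most, 76 of 2003 wide control peaks. That share, 3.79%, was close to the 3.83% of all wide control peaks. On chromosome 17 the share was 4.93% (54 of 1096, 3.72 to 6.38%), while the knockout-only share of wide knockout peaks there was 2.97% (2.04 to 4.17%). On chromosome 13 the values were 3.15% (1.73 to 5.23%) and 11.8% (9.13 to 14.9%). Along the chromosomes in windows of 5 Mb, 25 windows held 5 or more of the peaks. The window with most was chromosome 19 from 45 to 50 Mb with 9 of 149 wide control peaks (6.04%). By share, chromosome 17 from 20 to 25 Mb stood out with 7 of 18 (38.9%), 5 of which were the run nearest to KCNJ18. Copy number of the cells was not tested.

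The genes nearest to the peaks were set against 17 lists and 45 symbol families, beside 3.57% of all genes. Counts were small, the lists differ in gene length, and no list was tested. Of 30 genes of the YAP and TEAD programme, which relays cell shape and stiffness to transcription, 4 (13.3%) were nearest to a peak, and the list's median gene was 71.2 kb long. ARHGEF17, a guanine nucleotide exchange factor, held 2 peaks (pileup 10.1 and 9.39), CRIM1, a transmembrane binder of BMPs, 2 (12.1 and 11.3), TEAD1, the DNA-binding partner of YAP, 1 (8.89), and VGLL4, a competitor of YAP, 1 (10.3, where ATG7 adjoins). Of 32 genes of glycolysis and hypoxia 4 (12.5%) were nearest. These were BNIP3, a mitophagy receptor (pileup 9.19), EGLN1, the oxygen-sensing prolyl hydroxylase (11.9), LDHA, lactate dehydrogenase (11.1), and VEGFA, the angiogenic growth factor, whose peak lay 157 kb away (16.6).

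Among 38 genes of TGF-beta and BMP signalling 3 (7.89%) were nearest: GDF15 (24.5), SKI, a repressor of SMADs (2 peaks, 6.57 and 7), and SMAD3, a signal transducer (7.30). Of 30 SWI/SNF subunits 2 (6.67%) were, SMARCA4, the ATPase of the complex to which ARID1A belongs (8.36), and SS18L1 (33.5), both in the gene body. Of 32 genes of replication and mitosis CDC25A, a phosphatase that activates cyclin-dependent kinases (11.8 and 13.95), and CDK6 (6.27) were nearest. Of 32 EMT and mesenchymal genes LOXL2, a matrix cross-linking enzyme (8.30), and TNC, tenascin C (14.9), were. Of 24 basal identity genes KRT6B, a keratin (8.63), and NGFR, the low-affinity neurotrophin receptor (13.7), were, and of 34 stem cell, Notch and Wnt genes LRP5, a Wnt co-receptor (9.34), and MYC.

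RET and TEK, 2 of 51 receptor tyrosine kinases (3.92%), had peaks of 10.96 at a distance of 116 kb and 11.9 in the gene body. Of 29 housekeeping genes HPRT1 (7.82) and TFRC (16.2) were nearest (6.90%), a share of the same order as in most lists above. CLDN7, a tight junction protein and 1 of 32 luminal and epithelial genes (3.13%), had a peak of 16.96 where ELP5 adjoins, and BATF2 was the only 1 of 19 AP-1 factors (5.26%). None was nearest among 32 NF-kappaB and inflammatory, 34 interferon response, 24 p53 target, 26 blood cell, and 24 neuron and hepatocyte genes.

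Several symbol families had 3 or more genes nearest to a peak. Receptor-type phosphatases had 3 of 21 (14.3%), PTPRF, PTPRJ and PTPRU, of which only PTPRF was touched. Semaphorins and plexins, guidance cues and their receptors, had 4 of 29 (13.8%): PLXNA1 (31.0), PLXNB2 (7.25), PLXNC1 (12.4) and SEMA6D (20.7 and 12.5).

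ABC transporters had 5 of 46 (10.9%), ankyrin repeat ANKRD and ANK genes 6 of 60 (10%), ADAM and ADAMTS proteases 4 of 45 (8.89%), kinesins and dyneins 6 of 74 (8.11%) and TRP, ANO and BEST channels 3 of 37 (8.11%). Forkhead factors had 4 of 54 (7.41%), myosins 3 of 54 (5.56%), TRIM and RNF ubiquitin ligases 9 of 162 (5.56%) and USP deubiquitinases 3 of 76 (3.95%). Families near or below the share of all genes were G protein-coupled GPR and ADGR genes (4 of 111, 3.60%), cadherins (3 of 88, 3.41%), potassium channels (3 of 96, 3.13%), TMEM genes (6 of 233, 2.58%), solute carriers (7 of 398, 1.76%), ZNF genes (9 of 517, 1.74%) and olfactory receptors (3 of 392, 0.765%). The olfactory receptor genes are short, with a median of 2.94 kb, and 3 of them had an end peak in both lists.

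**Figure D5:**
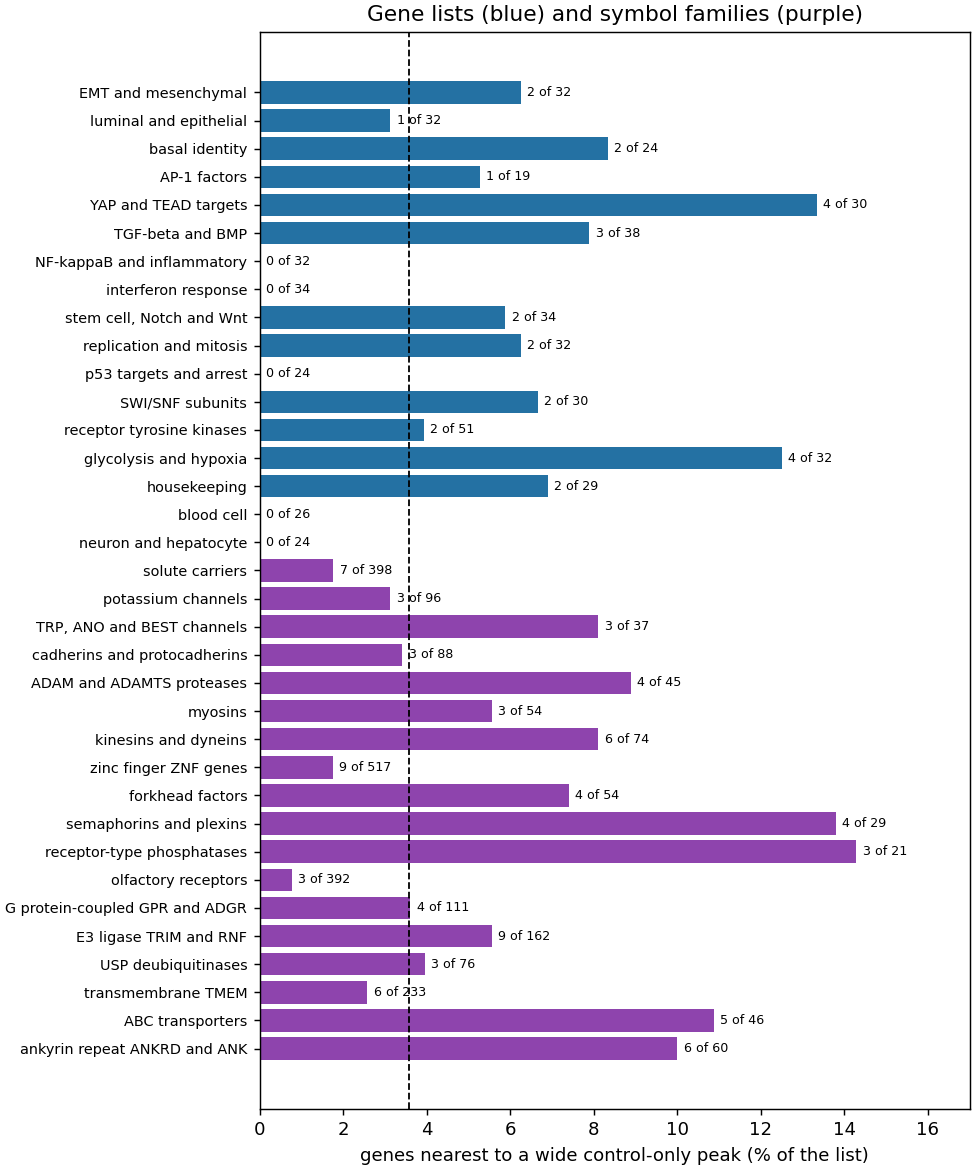
Percent of each gene list (blue) and of symbol families with 3 or more hits (purple) whose genes were nearest to a wide control-only peak, with the counts beside each bar. The dashed line is the 3.57% of all protein-coding genes; the YAP and TEAD list reached 13.3% and 5 lists had none.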

How the data were processed

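The data are 2 peak lists, 1 per genotype, each called on immunoprecipitate against input. The submitters' processing notes name Bowtie2 2.3.5.1, MACS2 2.2.6 and hg38. Options, library depth, and whether a list pools both replicates or holds 1 are not given in the sources used here. Deposited columns used, per the file headers, are position, width, pileup (a coverage signal), −log10 q-value and fold enrichment (a ratio), all the authors' values. Pileup and fold were used to describe and rank peaks within a list.

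From these, the wide control-only set, distances, runs, nearest genes and motif matches were derived with pandas 2.3.3, numpy 2.4.6 and scipy 1.17.1 under Python 3.11.15. Plots were drawn with matplotlib 3.10.9. The code for distances, set membership, neighbours and overlaps was tested on simulated data. Genes and promoter sequences are RefSeq GRCh38.p14; start sites were tabled for 15812 of 19974 coding genes. Exons were not told apart. Intervals are exact binomial (Clopper-Pearson) at 95%. No p-value was computed, because peaks are not replicates. The regions and the gene lists were chosen with earlier results of these data known. Named were the 10 widest and 10 highest peaks, the 15 highest at gene ends, runs, genes with 2 or more peaks, list genes nearest to a peak, families with 3 or more, and peaks at the limits; runs of 3 are given mainly as a count, and a few items that the rule names are not reported here. Peaks outside chromosomes 1 to 22 and X were left out. Alternatives changed the width, distance, q-value, gene-end and neighbour limits.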

Additional observations from a re-analysis of the deposited data

How the results depend on the processing

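With a minimum width of 1000 bp the set grew to 1914 peaks, with 29.2% between genes and 69.1% near another within 500 kb. With 2000 bp it was 349 peaks, 36.1% of them near another. Requiring over 5 kb to the nearest knockout peak left 510, with 60.2% in gene bodies, 29.4% between genes and 38.2% near another. A −log10 q of at least 5 in both lists gave 54.2% in gene bodies, 34.0% between genes and 44.1% near another (853 peaks). Those 853 include peaks with a weaker listed knockout peak nearby. The same limit on control peaks alone left 299, with 14.05% at gene ends, 48.8% in gene bodies, 37.1% between genes and 27.1% near another. With windows at start sites only, 4.95% were at gene starts. Counting neighbours within 100 kb or 1 Mb gave 20.7% or 62.2%. Gene bodies held the largest share under each width, distance and q limit. Under the remaining alternatives (no overlap only, and a gene-end window of 2 kb) the values differed little. Width and q are the authors' values, and the depth behind them is unknown. No paired analysis was possible because each genotype had a single list that carries no replicate, and for the same reason no replicate could be left out.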
